A study of Mus musculus with 18 samples.

Results

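The 35 genes described here encode the enzymes of cholesterol and fatty acid synthesis and the proteins that control them. They were taken by gene name from a list that was drawn up with earlier results of these data known, and each gene was read from its brightest probe set (the short probes on the array that report 1 transcript). Of the 35 genes, 34 had such a probe set and Acat2, which encodes an acetyl-CoA acetyltransferase, was not analysed here. The 34 genes are among 12257 genes tested in the series, and all 34 were above the floor for dim probe sets (an intensity of 18.05) on all 18 arrays. They fall into 17 enzymes of the sterol pathway, 6 genes for SREBP regulators and sterol transport, and 11 enzymes of fatty acid synthesis, elongation and desaturation.

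RAW cells, a macrophage-like mouse cell line, were stimulated with R848, a small-molecule agonist of the endosomal receptor TLR7. The medium arm received neither R848 nor a compound. The other arms received R848 (0.1 mM as the labels give it) alone, or R848 together with 1 uM apilimod or 1 uM API09. Apilimod inhibits the endosomal lipid kinase PIKfyve, and the series design calls API09 its inactive analog. There were 2 medium arrays at 0 h and 1 array of each arm at 1, 3, 7 and 22 h. No arm used here received apilimod without R848, so every apilimod value here is from stimulated cells. Because the cells are 1 line grown in bulk culture, a change in every cell and a change in some of the cells cannot be told apart.

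Cholesterol is made from acetyl-CoA through mevalonate, isoprenoids, squalene and lanosterol. Fatty acids are made from the same acetyl-CoA by carboxylation and chain building, and are then elongated and desaturated. Both pathways are governed by the transcription factors SREBP1 (gene Srebf1) and SREBP2 (gene Srebf2), which are made as precursors in the membrane of the endoplasmic reticulum. When sterol in that membrane is scarce, the escort protein Scap carries the precursors to the Golgi, where proteases release the active factor. When sterol is plentiful, Insig1 and Insig2 hold Scap back. SREBP2 is best known for sterol genes and SREBP1 for fatty acid genes. In macrophages the pathway is also known to respond to Toll-like receptor signals and to cholesterol that arrives through endosomes and lysosomes.

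SREBP factors bind a sterol regulatory element, often beside a CCAAT box, the site of the factor NF-Y. The 250 bases before the transcription start are shown for 3 sterol enzymes whose apilimod differences were among the largest and for the feedback regulator Insig1. All 4 genes were called higher with apilimod at 3 and 7 h, and they differed at 22 h, as described below. The sequences are those of RefSeq on build GRCm38.p6, written 5′ to 3′ on the gene's own strand, and capitals mark matches to the letters TCACNCCAC (SRE core) or to CCAAT, whose reverse complement reads ATTGG. The stretch of Hmgcs1 lies at chr13:119690101-119690350 on the plus strand, Mvd at chr8:122443423-122443672 on the minus strand, Idi1 at chr13:8885356-8885605 on the plus strand and Insig1 at chr5:28071162-28071411 on the plus strand.
Hmgcs1: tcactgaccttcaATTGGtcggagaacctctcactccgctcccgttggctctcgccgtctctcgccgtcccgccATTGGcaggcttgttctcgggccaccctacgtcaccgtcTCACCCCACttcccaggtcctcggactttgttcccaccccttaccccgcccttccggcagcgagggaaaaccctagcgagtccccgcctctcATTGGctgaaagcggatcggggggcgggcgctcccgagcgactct
Mvd: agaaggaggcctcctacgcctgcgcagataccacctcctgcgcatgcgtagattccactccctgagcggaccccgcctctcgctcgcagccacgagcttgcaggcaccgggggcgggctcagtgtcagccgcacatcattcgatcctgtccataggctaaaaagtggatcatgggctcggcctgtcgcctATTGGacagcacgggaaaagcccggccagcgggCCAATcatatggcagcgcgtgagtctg
Idi1: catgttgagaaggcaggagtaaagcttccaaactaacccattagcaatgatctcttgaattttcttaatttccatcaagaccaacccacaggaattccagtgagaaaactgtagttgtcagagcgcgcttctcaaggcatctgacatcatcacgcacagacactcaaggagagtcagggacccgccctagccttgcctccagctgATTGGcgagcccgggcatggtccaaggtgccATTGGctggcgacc
Insig1: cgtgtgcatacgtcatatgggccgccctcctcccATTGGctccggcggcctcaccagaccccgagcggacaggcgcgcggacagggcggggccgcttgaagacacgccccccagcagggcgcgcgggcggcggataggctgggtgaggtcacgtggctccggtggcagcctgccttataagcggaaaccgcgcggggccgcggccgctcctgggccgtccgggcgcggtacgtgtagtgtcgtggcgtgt

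The SRE core letters were in 1 of these 4 stretches, starting 137 bases before the start of Hmgcs1. ATTGG or CCAAT occurred in all 4 of them, and no match overlapped another. Over windows of 300 bases (250 before the start and 50 after it, both strands), 28 of the 35 genes had an entry. CCAAT was in 23 of the 28 genes (82.1%), against 42.6% of the 9933 tested genes with a window. By role it was in 14 of 15 sterol enzymes, 4 of 5 regulators and 5 of 8 fatty acid enzymes. The SRE core letters were in 1 of the 28 genes (3.57%) and in 1.43% of the tested genes. These are matches of letters in a short window and do not show that a site is used.

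The macrophage genes Cd68, Csf1r, Cd14 and Lyz2 were bright on all 18 arrays (Cd68 at intensities of 4778 to 8931). Ptprc (1366 to 2252), Adgre1 (390 to 2019), Fcgr1 (165 to 2466) and Itgam (97.5 to 1251), on the same marker list, were less bright but above the floor on all 18. None of 4 fibroblast genes was above the floor on any array. Of the other markers checked, Epcam (42.9 to 61.0), Cd3e (25.1 to 39.4) and Krt8 (19.9 to 26.8) were dim but above the floor on all 18 arrays, Cd8a on 15 and Cd79a on 2, and Cd3g, Ms4a1 and Cdh1 on 0. The R848+API09 array at 22 h was dimmer than the others, with an upper quartile of 87.0 against 100.9 to 118.6, and its 18S ribosomal RNA probe sets were the brightest, at a mean log2 of 10.53. The next was the R848+API09 array at 7 h at 10.14, while the other 16 arrays were at 7.94 to 9.45. Differences below are in log2 of the intensity plus 16, with the standard error of the fit. At each hour the array with R848 alone and the one with R848+API09 serve as the R848 controls, so an apilimod difference sets 1 array against 2. A gene was called when limma's p, adjusted by Benjamini-Hochberg over the 12257 genes, was under 0.05. The spread comes from 5 pairs of arrays, and the labels do not say whether arrays came from separate cultures, so the p-values reflect the spread among these arrays alone, and that spread may be technical. The pairs were not alike. Between R848 and R848+API09 the median absolute difference over all genes was 0.07, 0.07 and 0.08 at 1, 3 and 7 h, but 0.17 at 22 h. Each gene has 1 variance for all hours, so errors of comparisons that use the 22 h arrays may be too small.

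The main pattern is visible in the medians of the 3 roles. For the sterol enzymes, the median difference from medium at 0 h was 0.80 at 3 h, 1.58 at 7 h and 0.33 at 22 h with apilimod. It was -0.25, 0.14 and 0.53 with R848 alone and -0.20, 0.10 and 0.39 with API09. The fatty acid enzymes were at 0.21 at 7 h with apilimod, while R848 alone was at -0.79 and API09 at -0.85. At 22 h the order was turned, with apilimod at -0.59, R848 alone at -0.05 and API09 at -0.14.

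**Figure D1:**
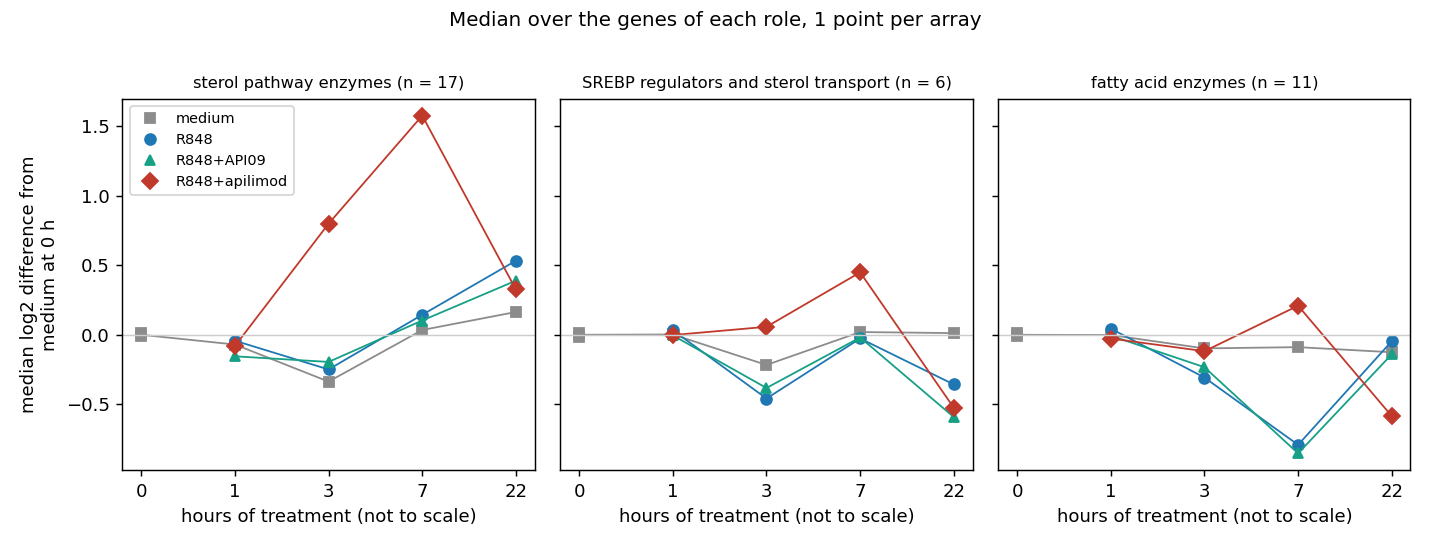
Median over the genes of each role of the log2 difference from the mean of the medium arrays at 0 h (vertical axis), by hour of treatment (horizontal axis, not to scale), 1 point per array, lines joining arrays of an arm. The R848+apilimod array stood highest in all 3 panels at 7 h, and for the fatty acid enzymes it stood lowest at 22 h.

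The R848 controls were first set against medium, to show the levels on which apilimod acted. At 7 h the genes for chain elongation and desaturation were lower in the R848 controls than in medium. Fads1 and Fads2, the desaturases of polyunsaturated fatty acids, were at -1.23 ± 0.09 and -1.02 ± 0.16, the elongases Elovl6 and Elovl5 at -1.03 ± 0.20 and -0.67 ± 0.09, and the stearoyl-CoA desaturases Scd2 and Scd1 at -0.95 ± 0.09 and -0.62 ± 0.12. In all, 1 of 11 fatty acid enzymes was higher and 7 were lower at 7 h, against 3 higher and 2 lower of 17 sterol enzymes and 0 higher and 1 lower of 6 regulators. That makes 4 of 34 genes higher, where 11.3% of all genes tested were, and 10 lower, where 18.5% were. The 4 higher genes became 0 with R848+API09 alone as the control and 1 with R848 alone. Dhcr7, the reductase of the last step to cholesterol, was the sterol enzyme with the lowest difference, at -0.98 ± 0.09 at 3 h and -0.93 ± 0.09 at 7 h. Srebf1 was lower at each of these hours, at -0.69 ± 0.10 and -0.51 ± 0.10, and at 22 h at -0.31 ± 0.10, a call that was lost when the R848+API09 array was left out.

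At 22 h more of the sterol enzymes were higher. Of 17, 9 were higher than in medium of the same hour and none lower, among them Sc5d at 0.79 ± 0.11 (an oxidase late in the pathway), the phosphomevalonate kinase gene Pmvk at 0.74 ± 0.13 and the lanosterol synthase gene Lss at 0.62 ± 0.10. The fatty acid enzymes were divided, with 3 higher and 5 lower. Acss2, which makes acetyl-CoA from acetate, was at 1.09 ± 0.10 and Me1, the malic enzyme that supplies NADPH, at 0.98 ± 0.10, while Elovl6 was at -0.92 ± 0.20 and Fasn, the fatty acid synthase, at -0.44 ± 0.12. Among the regulators 0 were higher and 4 lower, including Scap at -0.74 ± 0.14 and Stard4, a carrier of sterol through the cytosol, at -0.74 ± 0.14. Over all 34 genes 12 were higher and 9 lower, against 16.5% and 29.1% of all genes. With the mean over a gene's probe sets in place of the brightest one, Sc5d changed sign in this comparison and Lss was not called.

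At 1 h none of the 34 genes was called and none had an unadjusted p under 0.05, while 0.636% of all genes were higher and 0.0653% lower in the R848 controls (limma; 469 of 12257 genes had an unadjusted p under 0.05). At 3 h 8 of the 34 genes were called higher and 4 lower, against 6.23% and 9.19% of all genes. The higher ones were 6 sterol enzymes, Insig1 at 0.48 ± 0.12 and Srebf2 at 0.42 ± 0.09. The lower ones were Dhcr7, Srebf1, Scd2 at -0.75 ± 0.09 and Fads1 at -0.33 ± 0.09. The medium array at 3 h was itself at a median of -0.34 for the sterol enzymes relative to 0 h, and the count of higher genes was small and unsteady: it ranged from 2 to 5 when either medium array at 0 h, the R848 array or the R848+API09 array was left out, with 2 when R848 alone was the control. Hmgcs1, Fdft1 and Sc5d lost their call in each of those cases.

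Apilimod raised the sterol enzymes within 3 h and nearly all of them by 7 h. At 3 h, 16 of the 34 genes were higher with R848+apilimod than in the R848 controls and 0 were lower, where 5.07% of all genes were higher and 4.12% lower. By role these were 12 of 17 sterol enzymes, 3 of 6 regulators and 1 of 11 fatty acid enzymes. At 7 h, 29 of 34 were higher and 0 lower, where 9.81% of all genes were higher and 9.81% lower. These were 16 of 17 sterol enzymes, 3 of 6 regulators and 10 of 11 fatty acid enzymes. The median difference of the sterol enzymes was 1.02 at 3 h and 1.38 at 7 h, that of the fatty acid enzymes 0.23 and 0.84, and that of all genes tested -0.03 and -0.02. These comparisons share their control arrays with those of the R848 controls against medium. All 16 genes higher at 3 h were higher at 7 h as well. On 20 of the 34 genes the R848+apilimod array at 7 h was the highest of all 18 arrays, as it was for 7.05% of all genes tested.

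At 1 h apilimod had no measured effect on these genes. None of the 34 was called, none had an unadjusted p under 0.05 and the differences lay between -0.16 and 0.12. No gene of the whole set was called higher (0%) or lower (0%) at that hour, and limma gave 165 of 12257 genes an unadjusted p under 0.05.

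**Figure D2:**
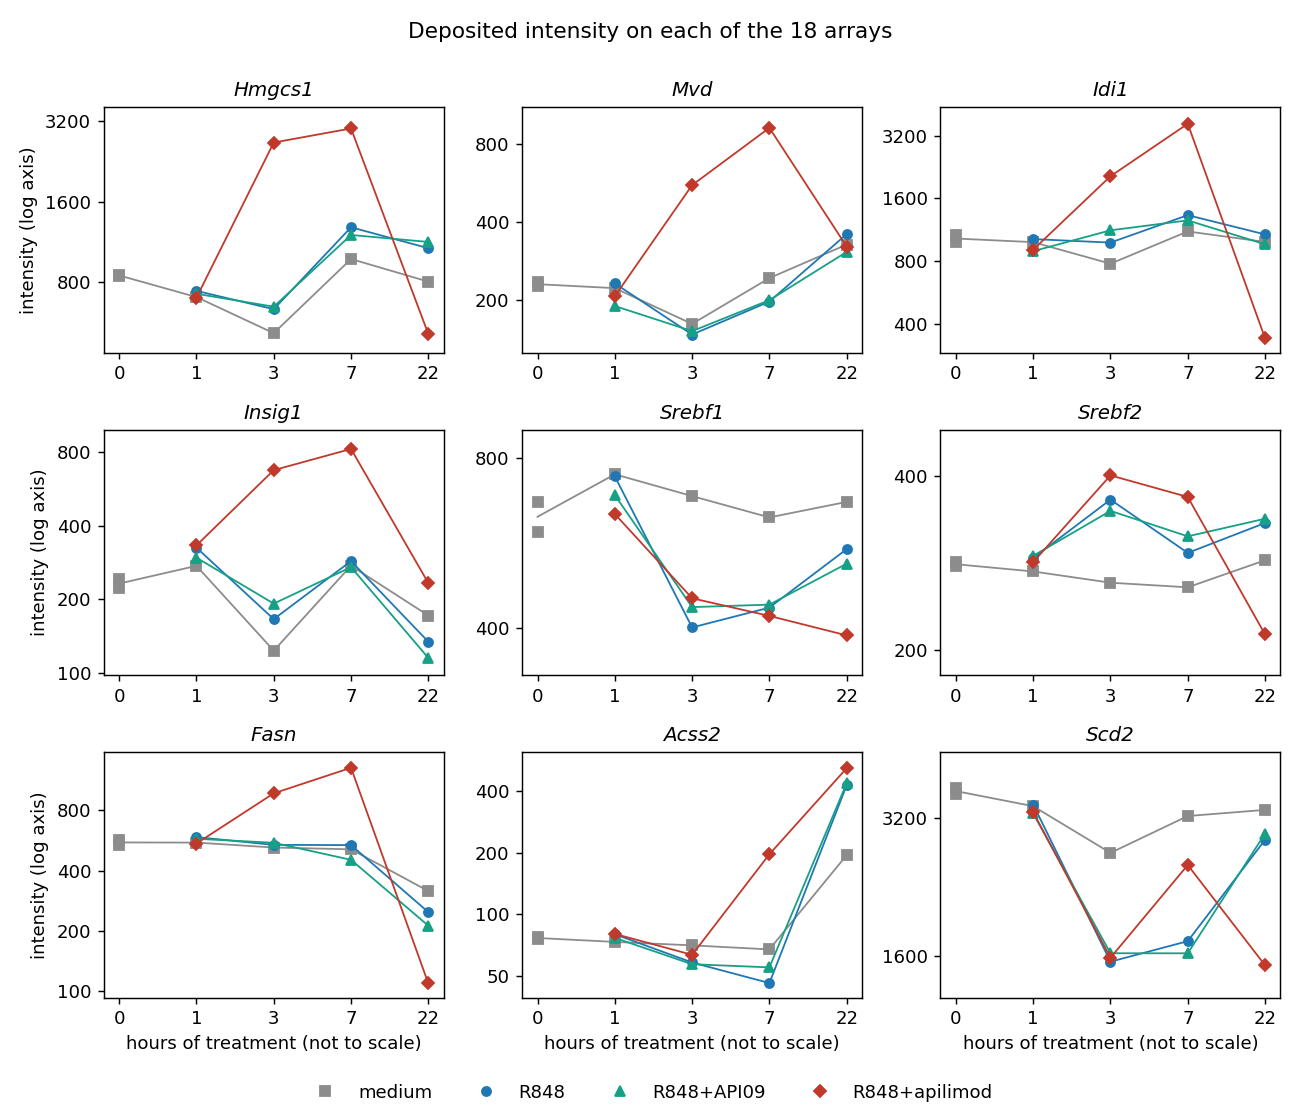
Deposited intensity (log axis) of 9 genes by hour of treatment (not to scale), 1 point for each of the 18 arrays, coloured by arm. With apilimod, Hmgcs1, Mvd, Idi1, Insig1 and Fasn stood above both R848 control arrays at 3 and 7 h. At 22 h Hmgcs1, Idi1, Fasn, Scd2, Srebf1 and Srebf2 with apilimod stood below every other array of the hour.

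Hmgcs1 encodes the synthase that makes HMG-CoA, the first committed intermediate of the mevalonate branch, and carries the SRE core match shown above. On the medium arrays Hmgcs1 read 853 and 845 in intensity at 0 h, then 705, 517, 978 and 805 at 1, 3, 7 and 22 h. Hmgcs1 was at 744, 635, 1286 and 1073 with R848 alone at those hours, and at 725, 649, 1203 and 1133 with R848+API09. With R848+apilimod, Hmgcs1 was at 701, 2666, 3009 and 513. The control arrays of each hour lay close together, and the apilimod array was far above them at 3 and 7 h and below them at 22 h. The differences were 2.03 ± 0.09 at 3 h (fold 4.08, limma adjusted p = 1.01e-07), 1.26 ± 0.09 at 7 h and -1.08 ± 0.09 at 22 h. Hmgcs1 was the gene of the 34 with the largest difference at 3 h, and its difference was already smaller at 7 h than at 3 h, by -0.76 ± 0.12 (adjusted p = 0.00448), a change that was not called with R848+API09 alone as the control.

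Mvd encodes the decarboxylase that makes isopentenyl diphosphate, the building block of isoprenoids. Intensities of Mvd in medium were 227 and 235 at 0 h and 223, 162, 244 and 328 at 1, 3, 7 and 22 h. For Mvd at those 4 hours, R848 alone gave 233, 148, 198 and 360.4 and R848+API09 gave 190.4, 152, 201 and 308. With R848+apilimod, Mvd was at 208, 557, 926 and 323. The 7 h apilimod array was the highest of all, and at 22 h the apilimod value lay between the 2 control values. The difference was 1.79 ± 0.12 at 3 h and 2.13 ± 0.12 at 7 h (fold 4.37, adjusted p = 3.30e-07), the largest of the 34 genes at that hour, and -0.04 ± 0.12 at 22 h, which was not called.

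Idi1, the isomerase of the next step, had the widest swing. Idi1 had an intensity of 1063 and 988 on the medium arrays at 0 h and of 985, 776, 1109 and 987 in medium at 1, 3, 7 and 22 h. Idi1 was at 1019, 980.3, 1328 and 1073 with R848 alone at those hours, and at 892, 1123, 1253 and 962 with R848+API09. The R848+apilimod arrays gave 906, 2043, 3652 and 340.3 for Idi1. The 22 h apilimod array was the lowest of all 18 arrays for this gene. The difference was 0.95 ± 0.12 at 3 h, 1.49 ± 0.12 at 7 h and -1.53 ± 0.12 at 22 h (fold 0.345, adjusted p = 3.62e-06).

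Lss, Nsdhl and Dhcr7 act later: Lss makes lanosterol, and the other two act on the sterols after it. On the medium arrays Lss read 339.7 and 313 in intensity at 0 h, then 306, 263, 323 and 367 at 1, 3, 7 and 22 h. For Lss at those 4 hours, R848 alone gave 314, 259, 412 and 606 and R848+API09 gave 319.6, 283, 417 and 537. With R848+apilimod, Lss was at 311, 567, 1237 and 456. Lss was 1.02 ± 0.10 at 3 h, 1.54 ± 0.10 at 7 h and -0.31 ± 0.10 at 22 h. The last of these was lost with either medium array at 0 h left out, with R848+API09 alone as the control, with a pseudocount of 1 and with the mean over probe sets.

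Nsdhl encodes a dehydrogenase that helps to remove methyl groups from the sterol ring. Intensities of Nsdhl in medium were 626 and 612 at 0 h and 622, 546, 632 and 829 at 1, 3, 7 and 22 h. Nsdhl was at 609, 518, 607 and 1008 with R848 alone at those hours, and at 611, 514, 642 and 849 with R848+API09. With R848+apilimod, Nsdhl was at 603, 942, 2053 and 838. Its 7 h apilimod array was the highest of the 18. The difference was 0.85 ± 0.10 at 3 h, 1.69 ± 0.10 at 7 h (adjusted p = 5.45e-07) and -0.14 ± 0.10 at 22 h, not called, though called lower with R848 alone as the control.

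Dhcr7 started from a different level, since R848 had lowered it. Dhcr7 had an intensity of 262 and 273 on the medium arrays at 0 h and of 276, 209, 275 and 306 in medium at 1, 3, 7 and 22 h. For Dhcr7 at those 4 hours, R848 alone gave 264, 101, 136 and 413 and R848+API09 gave 256, 95.4, 138 and 397. The R848+apilimod arrays gave 256, 228, 475 and 389.8 for Dhcr7. At 3 h the apilimod array was close to the medium array and above both control arrays, and at 7 h it was above the medium array too. The apilimod difference was 1.09 ± 0.09 at 3 h, 1.68 ± 0.09 at 7 h (adjusted p = 1.58e-07, the smallest of the 34 genes at that hour) and -0.05 ± 0.09 at 22 h, not called.

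Among the other sterol enzymes, the squalene synthase gene Fdft1 was at 1.41 ± 0.09 and 1.52 ± 0.09 at 3 and 7 h, the squalene epoxidase gene Sqle at 1.24 ± 0.09 and 1.23 ± 0.09, and the lanosterol demethylase gene Cyp51 at 1.07 ± 0.10 and 1.38 ± 0.10. Msmo1, Hsd17b7 and Sc5d, which act on the methyl groups and double bonds of the sterol ring, were at 1.03 ± 0.10, 1.38 ± 0.11 and 1.38 ± 0.11 at 7 h and had been called at 3 h. The other 4 enzymes called at 7 h were not called at 3 h. At 7 h the mevalonate kinase gene Mvk was at 0.99 ± 0.11, the phosphomevalonate kinase gene Pmvk at 1.03 ± 0.13, the farnesyl diphosphate synthase gene Fdps at 1.12 ± 0.11 and the sterol reductase gene Tm7sf2 at 0.84 ± 0.15. For Mvk, Pmvk and Fdps the gain from 3 to 7 h was itself called (0.83 ± 0.15, 0.72 ± 0.18 and 0.73 ± 0.16), though not with either control array alone. Ebp, which encodes a sterol isomerase, was the sterol enzyme not called at any hour, at -0.06 ± 0.12, 0.18 ± 0.12 and -0.01 ± 0.12.

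The genes that govern the pathway did not move as a block. Insig1, itself a target of SREBP, followed the sterol enzymes at 3 and 7 h. On the medium arrays Insig1 read 242 and 222 in intensity at 0 h, then 274, 123, 274 and 171 at 1, 3, 7 and 22 h. Insig1 was at 325, 166, 287 and 134 with R848 alone at those hours, and at 296, 192, 271 and 115 with R848+API09. With R848+apilimod, Insig1 was at 332, 676, 826 and 233. At 3, 7 and 22 h the apilimod array was above both control arrays. The difference was 1.83 ± 0.12 at 3 h (fold 3.56, adjusted p = 2.24e-06), 1.51 ± 0.12 at 7 h and 0.83 ± 0.12 at 22 h, so that Insig1 remained higher at the hour at which 9 sterol enzymes were lower.

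Insig2, the second anchor of Scap, remained higher with apilimod at 22 h. Intensities of Insig2 in medium were 246 and 253 at 0 h and 189, 195, 227 and 369 at 1, 3, 7 and 22 h. For Insig2 at those 4 hours, R848 alone gave 219.8, 175, 206 and 399 and R848+API09 gave 216, 165, 223 and 362. With R848+apilimod, Insig2 was at 227, 221, 367 and 647. On this probe set the apilimod array at 22 h was the highest of all 18. The other kept probe sets of Insig2 gave smaller apilimod differences at 22 h, 0.43 and 0.35. On them the R848 controls were at -0.64 and -0.66 relative to medium of that hour, so apilimod did not exceed medium there. With the mean over probe sets, the call of R848+apilimod against medium at 22 h was lost. The difference was 0.34 ± 0.09 at 3 h (adjusted p = 0.0452), 0.74 ± 0.09 at 7 h and 0.74 ± 0.09 at 22 h. The call at 3 h was lost with any of the arrays left out in turn (either medium array at 0 h, the R848 array or the R848+API09 array), while those at 7 and 22 h were kept.

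Srebf1 carried the R848 change and little of an apilimod change before 22 h. Srebf1 had an intensity of 592 and 669 on the medium arrays at 0 h and of 749.6, 686, 629 and 669.7 in medium at 1, 3, 7 and 22 h. Srebf1 was at 743, 401, 435 and 552 with R848 alone at those hours, and at 689, 436, 440.3 and 520.4 with R848+API09. The R848+apilimod arrays gave 637, 452, 420.5 and 388 for Srebf1. From 3 h on, all 9 stimulated arrays were below all medium arrays, and at 22 h the apilimod array was the lowest. The apilimod differences were 0.11 ± 0.10 and -0.06 ± 0.10 at 3 and 7 h, not called, and -0.45 ± 0.10 at 22 h (adjusted p = 0.00611).

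Srebf2 was higher in the R848 controls than in medium at 3 h. On the medium arrays Srebf2 read 279 and 283 in intensity at 0 h, then 273, 261, 257 and 286 at 1, 3, 7 and 22 h. For Srebf2 at those 4 hours, R848 alone gave 288, 364, 294 and 331 and R848+API09 gave 291, 348, 314 and 337. With R848+apilimod, Srebf2 was at 284, 401, 368 and 213. The apilimod array was the highest of its hour at 3 and 7 h and the lowest at 22 h. Its differences from the controls were 0.16 ± 0.09 at 3 h and 0.26 ± 0.09 at 7 h (adjusted p = 0.0547), neither called, and -0.62 ± 0.09 at 22 h, called. The 7 h difference was called with no filter, with the stricter filter, with the mean over probe sets and with the R848+API09 array at 22 h left out.

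Scap, the escort of SREBP, was not called against the controls at any hour. Intensities of Scap in medium were 361 and 359.7 at 0 h and 372, 356, 371 and 295 at 1, 3, 7 and 22 h. Scap was at 369, 377, 332 and 201 with R848 alone at those hours, and at 346, 380.2, 339 and 144 with R848+API09. With R848+apilimod, Scap was at 346, 337, 274 and 212. The 3 stimulated arrays at 22 h were below every other array. Apilimod differences were -0.16 ± 0.14, -0.28 ± 0.14 and 0.30 ± 0.14 at 3, 7 and 22 h.

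Stard4, whose transcript is another known SREBP2 target, resembled the enzymes. Stard4 had an intensity of 406 and 441 on the medium arrays at 0 h and of 379.8, 281, 457 and 424 in medium at 1, 3, 7 and 22 h. For Stard4 at those 4 hours, R848 alone gave 384, 261, 446 and 288 and R848+API09 gave 387, 274, 437 and 214. The R848+apilimod arrays gave 418, 491, 744 and 171 for Stard4. It was at 0.84 ± 0.14, 0.73 ± 0.14 and -0.50 ± 0.14, called at all 3 hours, and its 22 h apilimod array was the lowest of the 18.

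**Figure D3:**
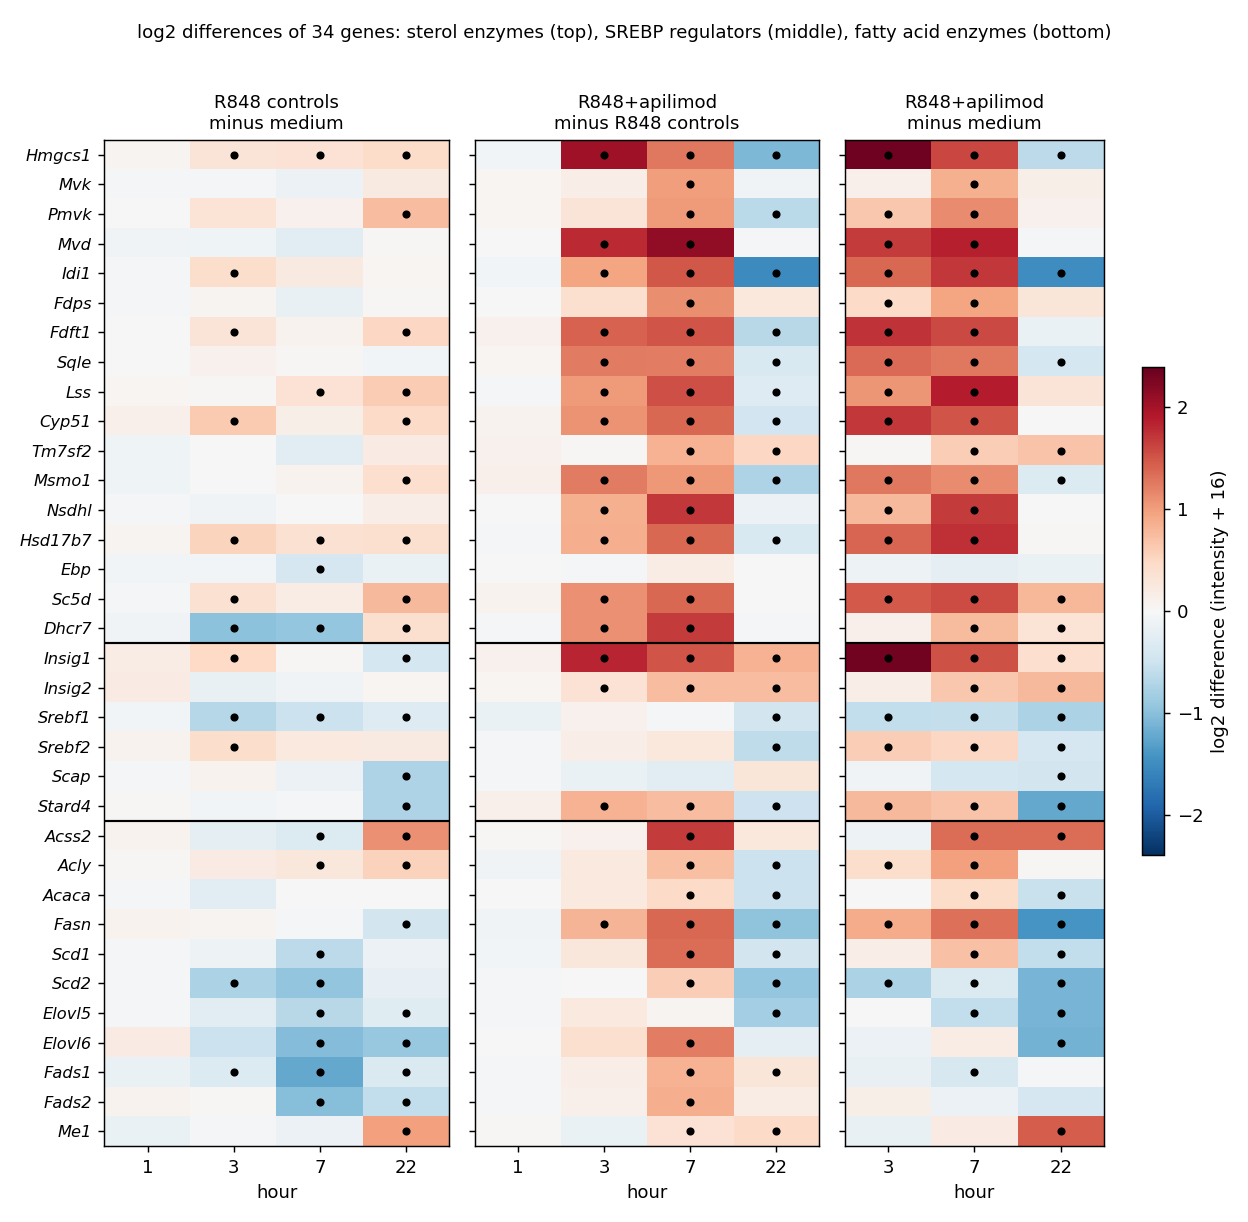
Log2 differences (colour) of the 34 genes at each hour for R848 controls minus medium, R848+apilimod minus R848 controls and R848+apilimod minus medium. Black dots mark calls, and horizontal lines divide the 17 sterol enzymes, 6 regulators and 11 fatty acid enzymes. The middle panel is red at 7 h for 29 called genes and mixed at 22 h, with 18 called lower and 5 higher.

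Most calls among the fatty acid enzymes came at 7 h. Only Fasn of the 11 was called at 3 h, and 10 were called at 7 h, all but Elovl5. A gain of the apilimod difference from 3 to 7 h was called for 4 of the 11 (Acss2, Scd1, Scd2 and Fads1). It was called for 5 of 17 sterol enzymes and for 0 of 6 regulators. The difference thus grew for 9 of the 34 genes and shrank for 1, Hmgcs1, where it did for 2.24% and 2.52% of all genes. With R848 alone or R848+API09 alone as the control, 8 of these 10 calls were lost, while the 9 gains became 16 with quantile normalization, 14 with trend and robust variances and 18 with the R848+API09 array at 22 h left out. Movement of the controls enters these changes too. From 3 to 7 h Hmgcs1 rose with apilimod from 2666 to 3009, while R848 alone went from 635 to 1286 and R848+API09 from 649 to 1203. Fads1 fell with apilimod from 1089 to 916, while R848 alone went from 953 to 501 and R848+API09 from 990 to 506. Whether the sterol and fatty acid enzymes differed in timing was not tested.

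Acss2 was dim early and rose in all arms by 22 h. On the medium arrays Acss2 read 77.8 and 75.3 in intensity at 0 h, then 73.2, 70.4, 67.3 and 194 at 1, 3, 7 and 22 h. Acss2 was at 79.8, 58.1, 46.1 and 426 with R848 alone at those hours, and at 76.6, 57.0, 55.0 and 436 with R848+API09. With R848+apilimod, Acss2 was at 80.1, 63.3, 196 and 516. At 7 h the apilimod array was above the medium array and both control arrays, while at 3 h it lay between them. Its difference was 0.11 ± 0.10 at 3 h, 1.68 ± 0.10 at 7 h (fold 3.2, adjusted p = 3.39e-07) and 0.25 ± 0.10 at 22 h, with the first and last not called. In medium alone Acss2 was 1.18 ± 0.10 higher at 22 h than at 0 h.

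Fasn builds palmitate from malonyl-CoA. Intensities of Fasn in medium were 538 and 569 at 0 h and 552, 522, 511 and 316 at 1, 3, 7 and 22 h. For Fasn at those 4 hours, R848 alone gave 589, 538, 537 and 248 and R848+API09 gave 577, 551, 453 and 212. With R848+apilimod, Fasn was at 546, 975, 1309 and 109. The apilimod arrays held the highest value of the gene, at 7 h, and the lowest, at 22 h. The differences were 0.82 ± 0.12, 1.38 ± 0.12 and -0.97 ± 0.12 at 3, 7 and 22 h (adjusted p = 6.90e-06 at 7 h and 9.18e-05 at 22 h). In the medium arm Fasn was itself lower at 22 h than at 0 h (-0.78 ± 0.12).

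Scd1 and Scd2 put the first double bond into saturated fatty acids. Scd1 had an intensity of 283 and 287 on the medium arrays at 0 h and of 277, 252, 239.8 and 553 in medium at 1, 3, 7 and 22 h. Scd1 was at 286, 219, 158 and 541 with R848 alone at those hours, and at 258, 240.2, 143 and 459.5 with R848+API09. The R848+apilimod arrays gave 261, 282, 403 and 361 for Scd1. Scd1 was below medium in the R848 controls at 7 h and above medium with apilimod. Its differences were 0.28 ± 0.12 at 3 h, not called, 1.33 ± 0.12 at 7 h and -0.45 ± 0.12 at 22 h.

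Scd2 fell by 3 h in the R848 controls. On the medium arrays Scd2 read 3617 and 3727 in intensity at 0 h, then 3403, 2689, 3238 and 3339 at 1, 3, 7 and 22 h. For Scd2 at those 4 hours, R848 alone gave 3432, 1553, 1723 and 2871 and R848+API09 gave 3279, 1621, 1620.4 and 2962. With R848+apilimod, Scd2 was at 3303, 1584, 2529 and 1525. At 3 h the 3 stimulated arrays were alike, at 7 h the apilimod array stood between the controls and medium, and at 22 h it was the lowest of all 18. The apilimod difference was 0.59 ± 0.09 at 7 h (adjusted p = 0.000498) and -0.93 ± 0.09 at 22 h (adjusted p = 1.49e-05).

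Elovl6 lengthens the chains that Fasn releases. Intensities of Elovl6 in medium were 186 and 177 at 0 h and 153, 147, 185 and 162 at 1, 3, 7 and 22 h. Elovl6 was at 174, 90.6, 92.0 and 99.8 with R848 alone at those hours, and at 183, 105, 72.8 and 61.0 with R848+API09. With R848+apilimod, Elovl6 was at 178, 132, 212 and 65.3. The controls of this gene were less alike than those of the others at 22 h. The difference was 1.22 ± 0.20 at 7 h and -0.22 ± 0.20 at 22 h, not called, though called lower with R848 alone as the control.

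Of the remaining fatty acid enzymes, Acly, which makes cytosolic acetyl-CoA from citrate, and the carboxylase gene Acaca were at 0.72 ± 0.09 and 0.45 ± 0.09 at 7 h. They were at -0.51 ± 0.09 and -0.52 ± 0.09 at 22 h, both called, the second not with the mean over probe sets. Fads1 and Fads2 were at 0.84 ± 0.09 and 0.87 ± 0.16 at 7 h, which left Fads2 near medium (-0.15 ± 0.19, not called) and Fads1 below it (-0.39 ± 0.10). Me1 was at 0.35 ± 0.10 at 7 h, a call that either medium array at 0 h or either control array decided, and at 0.47 ± 0.10 at 22 h. Elovl5 was at 0.07 ± 0.09 at 7 h and at -0.82 ± 0.09 at 22 h, called lower at the latter hour.

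By 22 h most of the increase was gone or turned. With R848+apilimod 5 of the 34 genes were higher than in the R848 controls, where 20.2% of all genes were, and 18 were lower, where 14.3% were. The 18 were 9 sterol enzymes, 3 regulators and 6 fatty acid enzymes, and the 5 were Tm7sf2, Insig1, Insig2, Fads1 and Me1. Of the 29 genes higher at 7 h, 15 were lower at 22 h (51.7%), 5 were higher at both hours and 9 were not called at 22 h. Among all 1203 genes higher at 7 h, 82 were lower at 22 h (6.82%) and 731 were higher at both hours. The lowest differences after Idi1 and Hmgcs1 were those of Fasn, Scd2, Elovl5 and Msmo1 (-0.74 ± 0.10). On 9 of the 34 genes the R848+apilimod array at 22 h was the lowest of all 18 arrays, as it was for 15.3% of all genes. The median was -0.31 for the sterol enzymes, -0.08 for the regulators, -0.45 for the fatty acid enzymes and 0.03 for all genes.

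The 22 h controls include the dimmer R848+API09 array. Without it, against R848 alone, 5 genes were higher and 20 lower, and with R848+API09 alone 8 were higher and 16 lower. In that last case Lss and Hsd17b7 were not called, and Fads2, Fdps and Scap were called higher. Idi1 was at -1.61 ± 0.12 against R848 alone and -1.46 ± 0.12 against R848+API09 alone, Hmgcs1 at -1.04 ± 0.08 and -1.12 ± 0.08, and Fasn at -1.08 ± 0.11 and -0.87 ± 0.11.

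The change between 7 and 22 h was tested as a difference of the 2 apilimod differences, so movement of the controls enters it too. It was called lower for 27 of 34 genes and higher for 0, against 8.77% and 11.3% of all genes. These were 15 of 17 sterol enzymes, 3 of 6 regulators and 9 of 11 fatty acid enzymes. Idi1 changed most, by -3.02 ± 0.17 (adjusted p = 2.94e-06), followed by Fasn (-2.35 ± 0.17), Hmgcs1 (-2.34 ± 0.12), Mvd (-2.17 ± 0.17) and Fdft1 (-2.17 ± 0.13). The genes without a call were Tm7sf2, Ebp, Insig2, Srebf1, Scap, Fads2 and Me1, and Insig2 changed by only 0.01 ± 0.13. For Mvd, Nsdhl, Dhcr7, Sc5d, Mvk, Fdps, Acss2 and Elovl6 the change was called although the 22 h difference was not. Of these, Elovl6 and Nsdhl were called lower at 22 h against R848 alone, and Fdps higher against R848+API09 alone. Acss2 was called higher with the stricter filter and with the mean over probe sets. The 22 h values of Idi1, Hmgcs1 and Fasn lay below both controls. A lower difference was not always a fall with apilimod. With apilimod Idi1 fell from 3652 at 7 h to 340.3 at 22 h. Acss2 instead rose from 196 to 516 with apilimod, from 46.1 to 426 with R848 alone and from 55.0 to 436 with R848+API09.

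**Figure D4:**
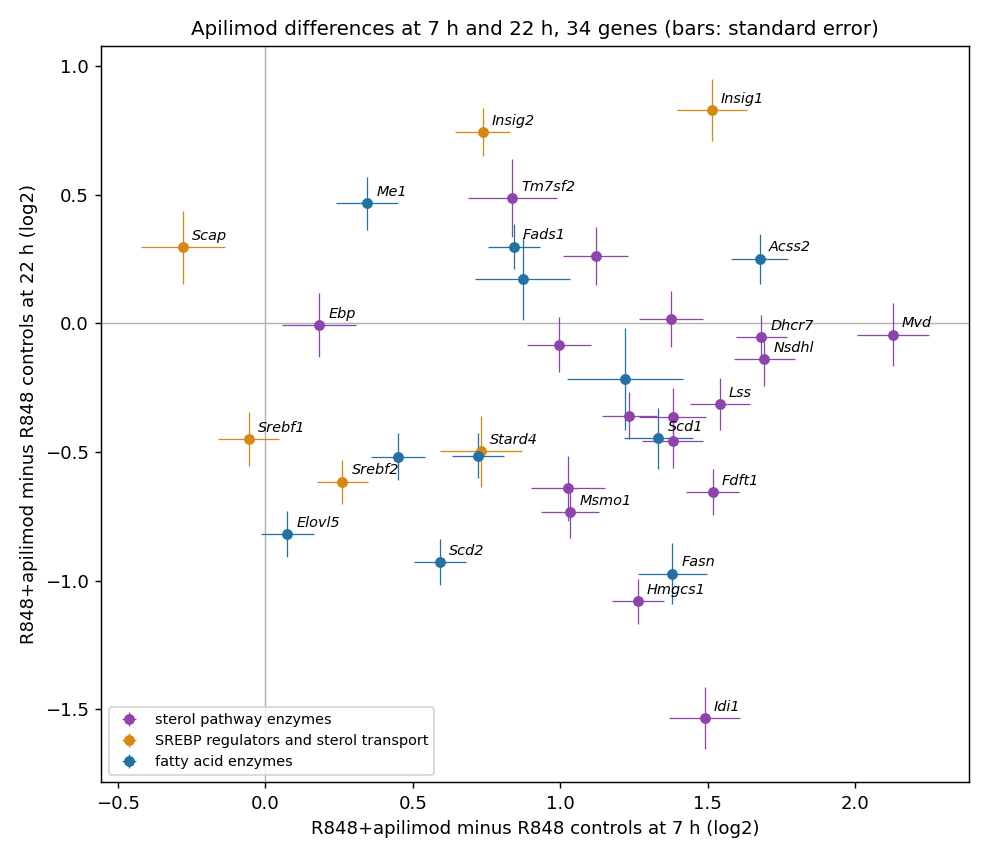
Difference between R848+apilimod and the R848 controls at 7 h (horizontal axis) and at 22 h (vertical axis), both in log2 with standard errors, 1 point per gene, coloured by role. Most points lie at the right of 0, and of these Idi1, Hmgcs1 and Fasn lie lowest while Insig1 and Insig2 lie highest.

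Set against medium of the same hour, apilimod-treated stimulated cells exceeded the unstimulated level at 3 and 7 h. At 3 h 18 of the 34 genes were higher and 2 lower than in medium, where 6.91% and 9.64% of all genes were. At 7 h 25 were higher and 4 lower, where 12.3% and 19.1% were, with 16 of 17 sterol enzymes, 4 of 6 regulators and 5 of 11 fatty acid enzymes higher. Hmgcs1 was 2.33 ± 0.10 above medium at 3 h and Insig1 2.31 ± 0.14, while at 7 h Lss was at 1.89 ± 0.12, Mvd at 1.86 ± 0.14 and Hsd17b7 at 1.76 ± 0.13. At 22 h 7 were higher and 14 lower, where 21.5% and 25.8% were. Sterol enzymes lower than medium at that hour were Hmgcs1 at -0.63 ± 0.10, Idi1 at -1.49 ± 0.14, Sqle at -0.43 ± 0.11 and Msmo1 at -0.33 ± 0.11. Fasn at -1.41 ± 0.14, Scd2 at -1.12 ± 0.10, Elovl5 at -1.11 ± 0.10 and Stard4 at -1.23 ± 0.16 were lower too. Me1 and Acss2 were the highest, at 1.45 ± 0.12 and 1.34 ± 0.11. These comparisons share the apilimod and medium arrays with those above and are not independent of them.

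The medium arm drifted in its own right. At 22 h 8 of the 34 genes were higher and 4 lower than in medium at 0 h, where 11.2% and 10.8% of all genes were. Acss2, Tm7sf2 (0.95 ± 0.15) and Scd1 (0.92 ± 0.12) were the highest. Hsd17b7 (-0.80 ± 0.11), Fasn, Me1 (-0.64 ± 0.10) and Insig1 (-0.40 ± 0.12) were the lower ones. The calls of Mvd, Nsdhl, Elovl5 and Insig1 were lost with either medium array at 0 h left out, which left 5 higher and 3 lower, and 7 were lower with the R848+API09 array at 22 h left out.

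The compound and its analog were compared at 1 uM and the same hours, as 4 pairs of arrays, 1 pair for each hour. With R848+API09 as the only control, apilimod gave 0 genes higher and 0 lower at 1 h, against 0% and 0% of all genes (limma; 199 of 12257 genes and 0 of the 34 had an unadjusted p under 0.05). It gave 15 higher and 0 lower at 3 h, against 3.78% and 2.59%, and 28 higher and 0 lower at 7 h, against 8.27% and 7.42%. At 22 h it gave 8 higher and 16 lower, against 31% and 16.8%, the hour at which the API09 array was the dim one. Mvd differed by 2.12 ± 0.15 and Dhcr7 by 1.67 ± 0.10 at 7 h. Each p was adjusted over the 12257 genes of its hour. Averaged over the 4 hours, no gene was called between apilimod and API09 (limma; 1613 genes and 9 of the 34 with an unadjusted p under 0.05), and with the 1 h arrays left out 2 of the 34 were called, where 4.45% of all genes were. In that fit, differences that change with the hour enter the spread and partly cancel in the mean. A missing call there says little about any single hour.

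For these genes the API09 arrays lay close to those of R848 alone at 1, 3 and 7 h, and less close at 22 h. Over the 4 hours no gene was called (limma; 182 of 12257 genes and 0 of the 34 with an unadjusted p under 0.05). The median difference of API09 from R848 alone over the 34 genes was -0.05, 0.03 and 0.02 at 1, 3 and 7 h, and the largest in size at those hours was 0.28, for Elovl6. At 22 h the median was -0.18, where that of all genes was -0.12, and 29 of the 34 were lower on the API09 array, Elovl6 by 0.59. The difference within 1 hour was not tested, and a missing call over the hours does not show that the arms were equal. The spread of the fit over the hours also holds the arm differences that change with the hour, which makes calls rare.

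The different probe sets of a gene mostly had 1 sign up to 7 h. Of 22 genes with at least 2 kept probe sets, all 22 had apilimod differences of 1 sign at 3 h, 21 at 7 h and 16 at 22 h. The exception at 7 h was Fdft1, and those at 22 h were Acaca, Fads2, Fdft1, Hsd17b7, Mvd and Sc5d. The sign at 22 h of these 6 genes therefore differs among probe sets, some of them dim. For Fdft1 the bright probe sets (mean intensities of 593 and 560) gave -0.66 and -0.60 at 22 h, and the positive value came from a dim one (27.9). Dim probe sets also made the Fdft1 exception at 7 h and the positive value of Acaca at 22 h (31.4). For Mvd, Hsd17b7 and Fads2 brighter probe sets differed in sign as well.

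Some other genes around the pathway were called as well. The 20 genes listed for this comparison were also chosen with earlier results of these data known. Of them 17 were tested, and apilimod raised 4 at 3 h, where 5.07% of all genes were higher, and 7 at 7 h, where 9.81% were. At these hours 0 and 1 were lower, where 4.12% and 9.81% were, and the lowest difference at 7 h was -0.52. At 22 h 3 were higher and 2 lower, shares close to the 20.2% and 14.3% of all genes. Aacs, which makes acetoacetyl-CoA, was at 1.28 ± 0.11 and 1.38 ± 0.11 at 3 and 7 h, and Pcyt1a, an enzyme of phosphatidylcholine synthesis, at 0.99 ± 0.14, 1.10 ± 0.14 and 1.18 ± 0.14 at 3, 7 and 22 h. Acsl3, a fatty acyl-CoA synthetase, was at 0.86 ± 0.10 and 0.70 ± 0.10 and then at -0.35 ± 0.10, and Mid1ip1, an activator of acetyl-CoA carboxylase, at 0.58 ± 0.09, 0.43 ± 0.09 and -0.31 ± 0.09. The citrate carrier gene Slc25a1 was at 0.73 ± 0.10 at 7 h. Mbtps1 and Mbtps2, which encode the proteases that release SREBP, were not called at any hour, at -0.11 ± 0.08 and 0.14 ± 0.10 at 7 h.

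Genes listed here as targets of the oxysterol receptor LXR, which senses oxidised sterols, were called in both directions. At 3 and 7 h Plin2 was the only higher one. Of 7 genes 6 were tested, and under apilimod 1 was higher and 3 were lower at 3 h, against 5.07% and 4.12% of all genes. The counts were the same at 7 h, against 9.81% and 9.81%, while at 22 h 2 were higher and 1 was lower, against 20.2% and 14.3%. The cholesterol exporter gene Abca1 was 2.58 ± 0.15 higher in the R848 controls than in medium at 7 h, and with apilimod it was at -3.28 ± 0.15 relative to those controls. Abcg1, a second exporter, was at -0.53 ± 0.09 and -2.41 ± 0.09 at 3 and 7 h, and Mylip, a ligase that degrades lipoprotein receptors, at -1.71 ± 0.13 and -1.56 ± 0.13. Plin2, which coats lipid droplets, was higher at 0.83 ± 0.12 and 1.30 ± 0.12, and Nr1h3, the gene of LXR alpha itself, was at 0.18 ± 0.13 at 7 h, not called. At 22 h Abca1 was at -0.08 ± 0.15, not called, and Abcg1 at -0.38 ± 0.09.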

How the data were processed

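RNA of RAW cells in medium, or with R848 alone, with apilimod or with API09, was measured on 18 Affymetrix mouse arrays, after NuGEN Ovation amplification per the labels' protocols. The authors deposited 1 table of linear intensities for 45101 probe sets. The submitters' processing notes name limma; background correction, summarisation and normalization were done by steps not given in the sources used here. Probe sets were named through GEO's platform annotation, and a probe set with 1 gene symbol was kept if it passed 18.05, the overall median intensity, on at least 3 arrays. Each of the 12257 genes was read from its kept probe set with the highest mean.

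Values were tested as log2(intensity + 16) with limma 3.58.1 in R 4.3.3, with 1 mean per arm and hour. R848 alone and R848+API09 shared 1 mean at each hour, which left 5 residual degrees of freedom, and lone arrays were assumed to vary like these pairs. Tests were two-sided, and a gene was called at a Benjamini-Hochberg adjusted p under 0.05 over all genes. For contrasts over the hours, arms were fitted as terms and the hour as a block. The fit was also run on simulated data with independent noise, scaled to the R848 and R848+API09 pairs before 22 h. Such data build in the assumption about lone arrays and could not check it. The number of arrays limits the precision.

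The 35 genes, their roles and the lists of 20 other pathway genes and 7 LXR targets were chosen with earlier results of these data known. Values on every array are given for the 4 genes of each role with the largest difference at 7 h, the 2 with the largest at 22 h, and Insig1, Srebf1 and Srebf2. Alternatives were quantile normalization, median centring, no filter, a floor at the 75th percentile, a pseudocount of 1, the mean over probe sets, trend and robust variances, each control or 0 h medium array left out, the dim 22 h array left out, no hour block and each hour left out.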

Additional observations from a re-analysis of the deposited data

Results flagged for a closer look

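The apilimod difference depended on the hour, by a test of the change itself (limma, adjusted p). It was lower at 22 h than at 7 h for 27 of the 34 genes, most of all for Idi1 at -3.02, Fasn at -2.35 and Hmgcs1 at -2.34 on the log2 scale. From 3 to 7 h it became larger for 9 genes and smaller for 1, Hmgcs1. The 9 ranged from 1 to 7 with a control array or a medium array at 0 h left out, and were 16 with quantile normalization and 18 with the R848+API09 array at 22 h left out.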

How the results depend on the processing

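With either control array or either medium array at 0 h left out, the 16 calls at 3 h and 29 at 7 h under apilimod became 15 and 28, with 0 lower. At 22 h the higher calls then ranged from 5 to 8, with 8 against R848+API09 alone, and the lower calls from 16 to 20. No filter gave 4 higher at 22 h, and the mean over probe sets gave 15 lower. For the change from 7 to 22 h, the 27 lower calls then ranged from 27 to 30 and the higher ones from 0 to 1. For the change from 3 to 7 h, the 9 higher calls ranged from 1 to 7 and the lower ones from 0 to 1. The higher calls of that change were 16 with quantile normalization, 14 with trend and robust variances and 18 with the dim R848+API09 array at 22 h left out. Leaving out that array also gave 31 lower and 1 higher in the change from 7 to 22 h, 1 lower under apilimod at 7 h, 7 lower for the R848 controls against medium at 3 h, and 7 lower for medium at 22 h against 0 h. Quantile normalization gave 1 lower under apilimod at 7 h, Scap, and 1 higher in the change from 7 to 22 h, as did trend and robust variances (1). For the R848 controls against medium at 3 h, the 8 higher calls became 4 with median centring, 4 with a pseudocount of 1 and 5 with the mean over probe sets, and ranged from 2 to 5 with an array left out. At 7 h their 4 higher calls ranged from 0 to 3. For medium at 22 h against 0 h, the 8 higher calls became 5 with either 0 h array left out. Apilimod against API09 over the hours gave 0 calls, and with 1 h left out 2 of the 34, where 545 of 12257 genes were called. In these cases the cause was not tested. Every other count of the 34 genes in these comparisons and those of R848+apilimod against medium was within 1.5 times that reported. No paired analysis was possible because the labels give no replicate numbers that pair arms. The hour was a block in the contrasts over the hours, which gave 0 calls among the 34 genes with and without it. All 34 genes were above the floor for dim probe sets on all 18 arrays.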
